A study of Mus musculus with 91 samples.

Results

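Tnxb, listed under the Ensembl identifier ENSMUSG00000033327, is 1 of the 14355 genes counted in ribosome-bound mRNA of D1 and D2 neurons of the mouse nucleus accumbens. It was selected on its measured rhythm in the D2 libraries, a strong daily change with a peak in the light phase, so its level over time in D2 is given as a description without a test. The stated choice names neither the D1 libraries, nor the mean levels, nor the sexes, and these were tested; the D2 comparisons use the same libraries as the choice.

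Tnxb encodes tenascin-X, a large glycoprotein of the extracellular matrix built from EGF-like repeats, fibronectin type III repeats and a C-terminal fibrinogen-like domain. It is known from connective tissue, where it associates with collagen fibrils and where its loss in humans causes a form of Ehlers-Danlos syndrome. In the brain tenascin-X has been described mainly in the leptomeninges and choroid plexus, while other tenascins, such as tenascin-R and tenascin-C, belong to the matrix around neurons and glia. The daily clock is a loop of transcription factors that bind short DNA elements, among them the E-box, the D-box and the site shared by REV-ERB and ROR receptors.

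The 91 libraries came from mice over 10 weeks old kept under 12 h of light and 12 h of darkness. D1 neurons were marked by crossing a Drd1-Cre line, and D2 neurons by crossing an A2a-Cre line, to RiboTag mice, in which Cre switches on a hemagglutinin-tagged ribosomal protein, HA-Rpl22. Tissue of 2 mice was pooled for each library. D1 and D2 neurons come from different mouse lines, so effects of line and of cell type cannot be told apart. Males and females were sampled at ZT2, 6, 10, 14, 18 and 22, where ZT is the time since lights on in hours, giving 24 groups of 3 or 4 libraries. There were 45 D1 libraries (23 female, 22 male) and 46 D2 libraries (23 of each sex). Titles give every library one of the replicate letters A, B, C, D and E, and nothing in the labels says that these mark shared animals, litters or days. The symbols of defining neuronal, glial and vascular markers could not be matched to the identifiers of the table, so the labelled cell types were not checked here, and the part of other cells' RNA in the results was not tested.

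Total counts per library ran from 6872165 to 24665262, with a median of 14047068. Tnxb had between 10 and 138 counts per library, with a median of 52, and no library was at 0. Counting error alone therefore gives a coefficient of variation between 8.51% and 31.6% for a single library; it covers counting only, since use of molecular identifiers is not stated. Levels are given as CPM, library-size normalised counts, scaled by TMM factors. 3 D1 libraries of males stood apart, with 789, 722 and 205 genes at 0 where no other library had more than 3. These were ZT10 B with 44 Tnxb counts, ZT22 B with 25 and ZT18 D with 10, and the D1 levels and tests that rest on them are given with and without them.

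In the GRCm38.p6 annotation of RefSeq, Tnxb spans 59363 bases of chromosome 17, from 34660453 to 34719815, in the class III part of the major histocompatibility complex. The nearest annotated genes are Atf6b, which ends 5378 bases before it, and C4b, which starts 8323 bases after it. The pseudogene Cyp21a2-ps overlaps the last 385 bases of Tnxb, and the small nuclear RNA gene Gm24389 lies wholly inside it. A partial copy of the gene, the pseudogene Tnxa, lies on the same chromosome between 34776555 and 34801623. Reads that Tnxb shares with these features cannot be told apart in the counts, and the sources do not say whether counting used strand.

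RefSeq places the start used for the promoter window of Tnxb at 34670535, which is 10082 bases inside the annotated span; of 7 listed transcripts, 1 is curated and 6 are models. That start coincides with the first ATG, so the window before it is the region upstream of the coding start and may not be the promoter used in these neurons. The 250 bases before it, on the plus strand, were searched on both strands for 9 short motifs. A stretch of 60 bases at chr17:34670445-34670504 is shown because it holds the only 2 matches, which are in capitals.

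Tnxb upstream stretch: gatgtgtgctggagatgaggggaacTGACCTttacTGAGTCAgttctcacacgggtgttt

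The first run in capitals, TGACCT, is the reverse complement of AGGTCA and begins 65 bases before the start. AGGTCA is only the core of the site bound by ROR and REV-ERB receptors. The bases flanking this core were not part of the search, so the match does not show a full ROR or REV-ERB site. Of the 32851 RefSeq windows of the same length, 14.0% hold this core. The second run, TGAGTCA, is the reverse complement of TGACTCA, the site of AP-1 factors, begins 55 bases before the start and is found in 4.46% of windows. The matches do not overlap. The other 7 motifs searched had no match in these letters: the E-box CACGTG (in 6.02% of windows), its variant CACGTT (3.85%), the D-box forms TTATGTAA (0.819%) and TTACGTAA (0.113%), the cAMP response element TGACGTCA (1.55%), the TATA box TATAAA (12.4%) and the full glucocorticoid response element (0.00913%).

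In D2 neurons Tnxb was lowest at the end of the dark phase and highest around the change from light to dark. It averaged 3.19 ± 0.697 CPM at ZT22 (SD, n = 8) and 5.89 ± 1.29 CPM at ZT10 (SD, n = 8), a ratio of 1.85. The level at ZT14, 2 h into darkness, was 5.70 ± 0.616 CPM (SD, n = 8) and differed from that at ZT10 by less than the spread between libraries. The mean at ZT10 includes female library B at 8.92 CPM, and the median was higher at ZT14 (5.61 CPM) than at ZT10 (5.56 CPM). The description of a light-phase peak therefore holds only in part, since the high level spans both sides of lights off. In bulk pull-downs such as these, fewer cells of a type and less RNA per cell cannot be told apart.

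**Figure D1:**
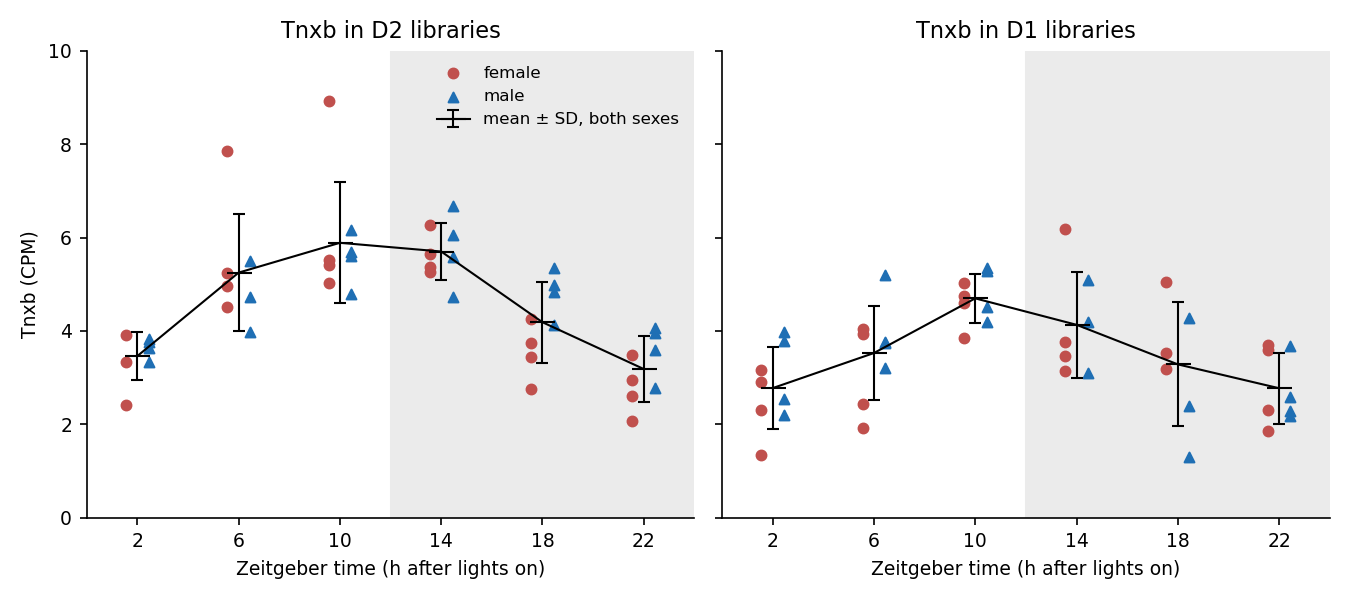
Tnxb level in CPM against zeitgeber time in D2 (left) and D1 libraries (right), with each library as a point (circles female, triangles male), black bars for the mean ± SD of both sexes and grey for the dark phase. In both cell types the highest mean is at ZT10 and the lowest at ZT22, but the D2 median is highest at ZT14. The D2 libraries of ZT10 and ZT14 all lie above those of ZT22 and ZT2.

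The single libraries of D2 neurons were as follows. At ZT2 the male libraries A to D held 3.76, 3.84, 3.63 and 3.34 CPM, and the female libraries A, C and D 2.43, 3.34 and 3.91 CPM. At ZT6 the male libraries A, C and D held 4.73, 3.97 and 5.49 CPM, and the female libraries A to D 7.84, 5.25, 4.96 and 4.51 CPM. Every ZT6 library was above every ZT2 library, and female library A was the highest of its time.

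At ZT10 the male libraries A to D held 5.68, 4.78, 6.15 and 5.61 CPM, and the female libraries 5.04, 8.92, 5.51 and 5.41 CPM. At ZT14 the values were 6.06, 4.74, 5.57 and 6.68 CPM in males and 5.38, 6.28, 5.65 and 5.27 CPM in females. The ranges of both times overlap, and female ZT10 B was the highest of all 91 libraries, with 125 counts.

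At ZT18 the male libraries A to D held 4.98, 4.84, 5.36 and 4.13 CPM and the female libraries 2.77, 3.44, 4.25 and 3.74 CPM. At ZT22 the values were 2.78, 3.60, 3.95 and 4.05 CPM in males and 3.48, 2.96, 2.60 and 2.07 CPM in females. The lowest D2 library was female ZT22 D, with 14 counts. All 16 libraries of ZT10 and ZT14 were at or above 4.74 CPM, and all 15 libraries of ZT22 and ZT2 were at or below 4.05 CPM.

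A cosine curve with a period of 24 h, fitted separately in each sex and averaged, had an amplitude of 0.48 ± 0.05 (SE) on the log2 scale in D2 neurons. Amplitude here is the distance of the peak from the mean level, so the fitted peak was 1.96-fold above the fitted trough. The fitted peak was at ZT 10.9 ± 0.42 h (SE). Of the 14355 genes, 40 (0.279%) had a larger fitted amplitude in D2 neurons, where the median over all genes was 0.07. Across all genes 2.94% passed the test of rhythm in D2 neurons (edgeR, adjusted p under 0.05); the choice of Tnxb used this contrast, so its own place among them is no result. With the replicate letter as a block, which pairs D2 libraries, 3198 genes passed in place of 422.

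**Figure D2:**
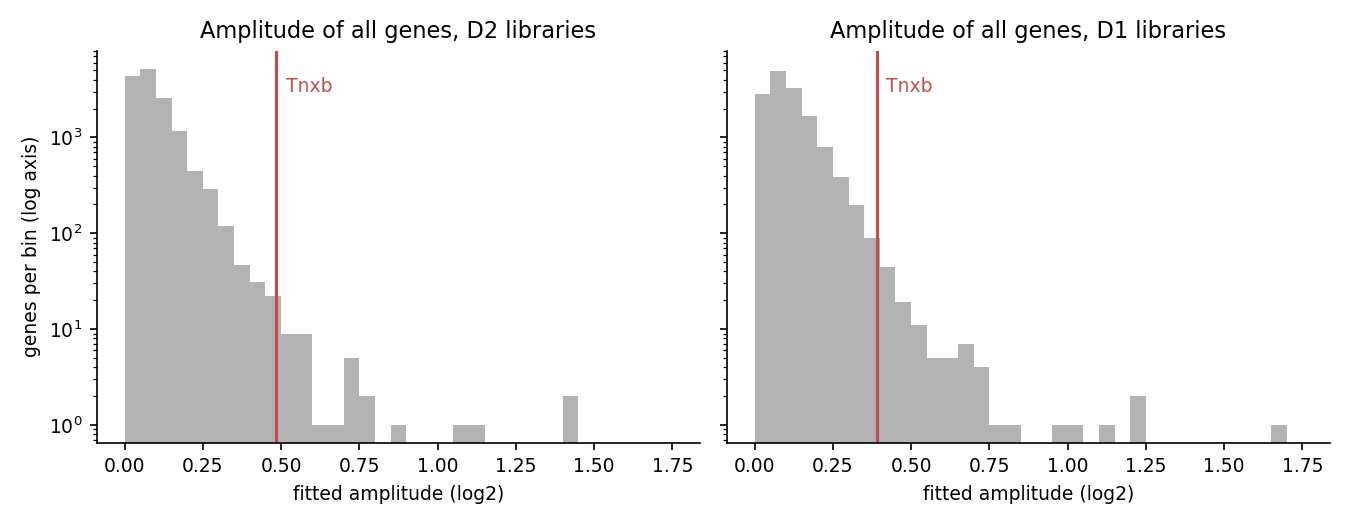
Fitted rhythm amplitude (log2, mean to peak) of all 14355 genes in D2 (left) and D1 libraries (right), as counts of genes per bin on a log axis, with a red line at Tnxb. Tnxb lies at 0.48 in D2 and 0.39 in D1, in the upper tail of both distributions. It was chosen for its D2 rhythm, so its place among the D2 values is no result.

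The D1 libraries, which the choice does not name, show whether the daily change is seen in another set of mice. Earlier results of these data were known at the choice, so the D1 test may not be independent of it. Tnxb was rhythmic in D1 neurons, with an amplitude of 0.39 ± 0.09 (SE) on the log2 scale, a fitted peak at ZT 11.4 ± 0.87 h (SE) and an adjusted p of 0.0415 (edgeR quasi-likelihood F-test, Benjamini-Hochberg over all genes). The fitted peak was 1.72-fold above the trough. Of all genes, 0.495% passed this test, and 115 (0.801%) had a larger amplitude than Tnxb. Without the 3 libraries that stand apart the amplitude was 0.37 and the adjusted p 0.0253. The call lies near the threshold: it was lost without letter A, B, C or D (adjusted p = 0.179, 0.0683, 0.227 and 0.397) and with time as a factor of 6 levels (adjusted p = 0.476), while the amplitude without each of these letters was between 0.37 and 0.42.

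By time, Tnxb in D1 neurons averaged 2.77 ± 0.757 CPM at ZT22 (SD, n = 8) and 4.70 ± 0.519 CPM at ZT10 (SD, n = 8), a ratio of 1.69. All 8 libraries of ZT10 were above all 8 of ZT22. Without the libraries that stand apart these means were 2.86 ± 0.776 CPM (SD, n = 7) and 4.61 ± 0.484 CPM (SD, n = 7).

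The single libraries of D1 neurons were as follows. At ZT2 the male libraries A to D held 2.54, 3.98, 2.20 and 3.78 CPM and the female libraries 2.91, 1.34, 3.16 and 2.31 CPM. At ZT6 they held 3.77, 5.19, 3.74 and 3.21 CPM in males and 4.03, 1.91, 2.43 and 3.93 CPM in females. The ranges of these times overlap widely, with female library B lowest at each.

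At ZT10 the male libraries A to D held 4.20, 5.35, 4.51 and 5.28 CPM and the female libraries 5.04, 3.86, 4.75 and 4.60 CPM. At ZT14 the male libraries A, C and D held 4.18, 3.09 and 5.08 CPM and the female libraries A to D 3.77, 3.15, 6.18 and 3.47 CPM. The values of ZT10 lay close together, and those of ZT14 spread around them, with female ZT14 C the highest D1 library at 105 counts.

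At ZT18 the libraries A, C and D held 4.27, 2.39 and 1.31 CPM in males and 3.18, 5.04 and 3.53 CPM in females. At ZT22 the male libraries A to D held 2.58, 2.18, 3.68 and 2.29 CPM, and the female libraries A, B, C and E 3.59, 1.87, 2.31 and 3.70 CPM. The lowest of all 91 libraries, male ZT18 D at 1.31 CPM, is one of those that stand apart. Without it the ZT18 mean went from 3.29 ± 1.33 CPM (SD, n = 6) to 3.68 ± 1.02 CPM (SD, n = 5). Of the 15 D1 libraries of ZT10 and ZT14, 10 were above all 16 libraries of ZT22 and ZT2; without the libraries that stand apart it was 9 of 14 above all 15.

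Within the groups of cell type, sex and time, the coefficient of variation of Tnxb had a median of 26.9% in D1 and 16.0% in D2 neurons. The median counting error of a single library was 14.6% in D1 and 12.7% in D2 libraries. Group values ran from 6.04% to 29.1% in D2 and from 11.1% to 56.5% in D1 neurons. Leaving out the 3 libraries that stand apart, the D1 maximum was 40.0% and the median 27.1%. On the log2 scale the pooled SD within groups was 0.43 in D1 (0.40 without these libraries) and 0.25 in D2 neurons.

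Averaged over the sexes, the fitted rhythms of both cell types were close in phase. The D1 peak was 0.51 h later than the D2 peak, which is below the standard error of the D1 peak. Without the 3 D1 libraries that stand apart the D1 peak was at ZT 12.0. By sex the shifts were opposite: females peaked later in D1 (ZT 13.1 ± 1.08 h, SE) than in D2 (ZT 10.2 ± 0.46 h, SE). Males peaked earlier in D1 (ZT 9.72 ± 1.14 h, SE) than in D2 (ZT 12.2 ± 0.77 h, SE). Without the 3 D1 libraries that stand apart, all male, the D1 male peak was at ZT 10.5 ± 1.36 h (SE). These shifts by sex were not tested. The difference between the sexes in rhythm passed in neither cell type. The difference of the fitted D1 and D2 curves, averaged over the sexes, had an amplitude of 0.11 ± 0.10 (SE) on the log2 scale. Without the 3 D1 libraries that stand apart it was 0.16. It contains the D2 rhythm for which the gene was chosen and is given without a test. The fits do not show that the rhythms are alike, since the 95% interval of the amplitude of 0.11, from all libraries, reached 0.30. No interval is given for the larger value without the 3 libraries.

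The replicate letters allow the rhythm to be fitted in separate sets of libraries. In D2 neurons the amplitude was 0.53 ± 0.14 in letter A (SE, 12 libraries), 0.48 ± 0.13 in B (SE, 10 libraries), 0.42 ± 0.10 in C (SE, 12 libraries) and 0.45 ± 0.10 in D (SE, 12 libraries). The D2 peaks were at ZT 10.2, 10.5, 12.1 and 11.0 in this order. In D1 neurons the amplitudes were 0.32 ± 0.11 in A (SE, 12 libraries), 0.59 ± 0.28 in B (SE, 9 libraries), 0.42 ± 0.15 in C (SE, 12 libraries) and 0.54 ± 0.21 in D (SE, 11 libraries). The D1 peaks were at ZT 11.7, 11.4, 12.9 and 10.0. The standard errors of the peaks ran from 0.85 to 1.20 h in D2 and from 1.29 to 2.45 h in D1 neurons. The D2 fits use the libraries on whose rhythm the gene was selected, so their likeness across letters is no support for it. Letters B and D hold the libraries that stand apart. Without these the D1 amplitude was 0.67 ± 0.20 with a peak at ZT 13.0 in B (SE, 7 libraries) and 0.45 ± 0.14 with a peak at ZT 11.2 in D (SE, 10 libraries). Mean levels were near each other across letters, from 4.52 CPM in D to 4.86 CPM in B in D2 neurons, and from 3.20 CPM in B to 3.67 CPM in A among letters A to D in D1 neurons.

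**Figure D3:**
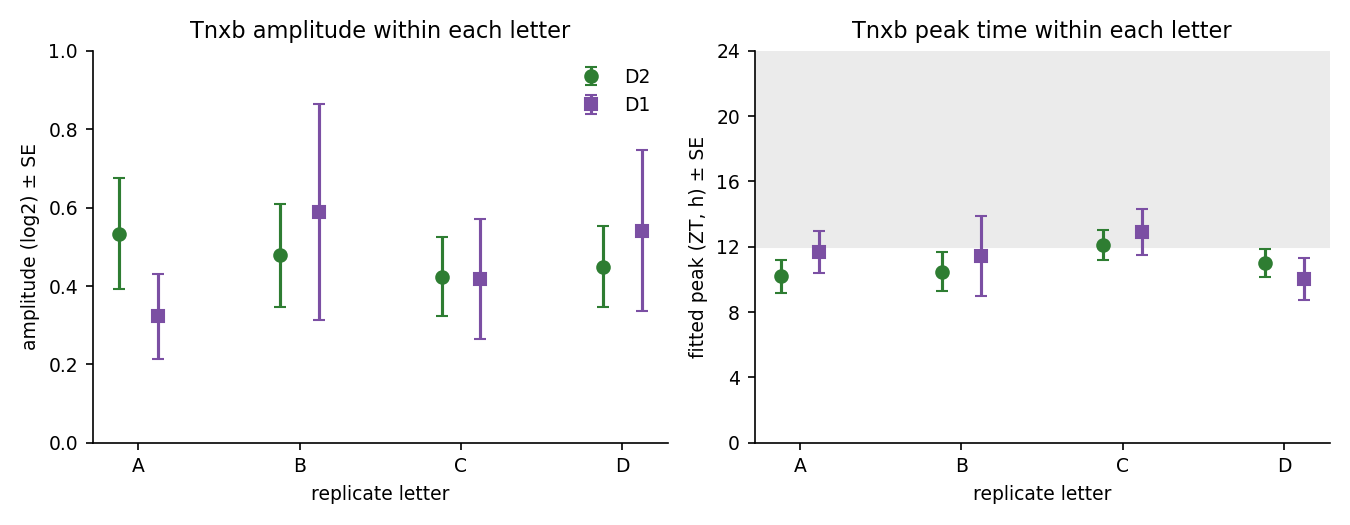
Amplitude on the log2 scale (left) and fitted peak in zeitgeber time (right, grey for the dark phase) of Tnxb within each replicate letter, for D2 (circles) and D1 libraries (squares), with bars for the standard error. Amplitudes lie between 0.32 and 0.59 and peaks between ZT 10.0 and 12.9.

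The mean level of Tnxb, which the choice does not name, was lower in D1 than in D2 neurons. The 45 D1 libraries averaged 3.53 ± 1.15 CPM (SD), and the 46 D2 libraries 4.62 ± 1.38 CPM (SD). The log2 difference, D1 minus D2, was -0.37 ± 0.07 (SE) with an adjusted p of 1.80e-05 (edgeR), which is 1.29-fold higher in D2. Of all genes, 9.86% passed this test with a higher level in D2 and 9.44% with a higher level in D1. Without the 3 libraries that stand apart the difference was -0.34 (adjusted p = 4.56e-05).

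D2 means were above D1 means at each of the 6 times, but the libraries overlapped at every time. The ratio of D2 over D1 was 1.25 at ZT2, 1.49 at ZT6, 1.25 at ZT10, 1.38 at ZT14, 1.27 at ZT18 and 1.15 at ZT22. At ZT10, 6 of the 8 D2 libraries were above every D1 library, and at ZT2 none of the 7 was. Without the libraries that stand apart it was 1.28 at ZT10, 1.14 at ZT18 and 1.11 at ZT22. These ratios are descriptions and were not tested time by time.

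Ordered by mean, the 12 combinations of cell type and time began with D2 at ZT10, ZT14 and ZT6 (5.25 ± 1.25 CPM, SD, n = 7). D1 at ZT10, D2 at ZT18 (4.19 ± 0.863 CPM, SD, n = 8) and D1 at ZT14 (4.13 ± 1.13 CPM, SD, n = 7) followed. Next were D1 at ZT6 (3.53 ± 1.01 CPM, SD, n = 8), D2 at ZT2 (3.46 ± 0.511 CPM, SD, n = 7) and D1 at ZT18. The order ended with D2 at ZT22, D1 at ZT2 (2.78 ± 0.871 CPM, SD, n = 8) and D1 at ZT22. In none of the 11 pairs of neighbours in this order, which mixes cell types and times, did the means differ by more than the larger SD of the pair. Neighbours in a sorted list lie close by construction, so this does not show that times or cell types are alike.

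The mean level of Tnxb did not pass the test of a difference between the sexes. In D2 neurons it was 4.68 ± 1.02 CPM in males (SD, n = 23) and 4.56 ± 1.69 CPM in females (SD, n = 23). The log2 difference, male minus female, was 0.09, with a 95% interval from -0.06 to 0.24 and an adjusted p of 0.926 (edgeR). In D1 neurons the levels were 3.58 ± 1.15 CPM in males (SD, n = 22) and 3.48 ± 1.17 CPM in females (SD, n = 23), with a log2 difference of 0.03, an interval from -0.21 to 0.28 and an adjusted p of 0.915. Without the 3 libraries that stand apart the D1 difference was 0.09, with 3.68 ± 0.982 CPM in males (SD, n = 19), and did not pass (adjusted p = 0.820, edgeR). The D2 difference was 0.16 without the 2 highest D2 libraries, female ZT10 B and female ZT6 A (unadjusted p = 0.0197, adjusted p = 0.727, edgeR). It was 0.03 without letter D and 0.15 without letter B. Of all genes, 0.216% (31) passed this test in D2 and 0.0418% (6) in D1 neurons. With the replicate letter as a block 1357 genes passed in D2 and 1042 in D1 neurons, and Tnxb did not (adjusted p = 0.487 and 0.778, edgeR). In D1 neurons 294 genes passed without letter B, and 33 with the block but without the libraries that stand apart.

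The fitted D2 curve was higher and earlier in females than in males, but the difference did not pass the test over all genes. The amplitude was 0.63 ± 0.08 in females (SE, 23 libraries), peaking at ZT 10.2 ± 0.46 h, and 0.37 ± 0.07 in males (SE, 23 libraries), peaking at ZT 12.2 ± 0.77 h. The fitted peak was 2.38-fold above the trough in females and 1.68-fold in males. The difference of the curves had an amplitude of 0.36 ± 0.10 (SE), an unadjusted p of 0.00561 and an adjusted p of 1.00 (edgeR). This test uses the D2 libraries on whose rhythm the gene was selected, and its independence from that choice was not tested. With edgeR 0 genes (0%) passed this test in D2 neurons, while DESeq2 called 2 genes and limma voom 3. At an unadjusted p under 0.05 edgeR had 389 genes, fewer than chance alone gives at that threshold. With the replicate letter as a block edgeR called 3 genes, and without letter A 1 gene. Under the block the adjusted p of Tnxb was 0.207. Without the 2 highest D2 libraries, female ZT10 B and female ZT6 A, the amplitude of the difference was 0.24 and the unadjusted p 0.0486.

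The sexes parted most at ZT18 in D2 neurons. Males averaged 4.83 ± 0.515 CPM (SD, n = 4) and females 3.55 ± 0.617 CPM (SD, n = 4), with female C above male D. At ZT10 the order of the means was opposite, with 5.56 ± 0.570 CPM in males (SD, n = 4) and 6.22 ± 1.81 CPM in females (SD, n = 4), a difference below the SD of the females. This opposite order rests on female library B at 8.92 CPM, since female libraries A, C and D were each below the male mean. By median, males were higher at ZT10 too, at 5.65 CPM against 5.46 CPM in females.

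In D1 neurons the order of the peaks was the other way round. Males peaked at ZT 9.72 ± 1.14 h with an amplitude of 0.43 ± 0.12 (SE, 22 libraries), and females at ZT 13.1 ± 1.08 h with an amplitude of 0.44 ± 0.12 (SE, 23 libraries). The difference of the curves had an amplitude of 0.38 ± 0.18 (SE) and did not pass (unadjusted p = 0.123, adjusted p = 1.00, edgeR). With edgeR 0 genes (0%) passed in D1 neurons, while DESeq2 called 0 genes and limma voom with quality weights 2885. At an unadjusted p under 0.05 edgeR had 226 genes, again fewer than chance alone gives. Without the 3 libraries that stand apart, which are all male, males peaked at ZT 10.5 ± 1.36 h with an amplitude of 0.34 ± 0.12 (SE, 19 libraries). The amplitude of the difference was then 0.28. Leaving out single letters gave values from 0.22 without B to 0.64 without A.

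**Figure D4:**
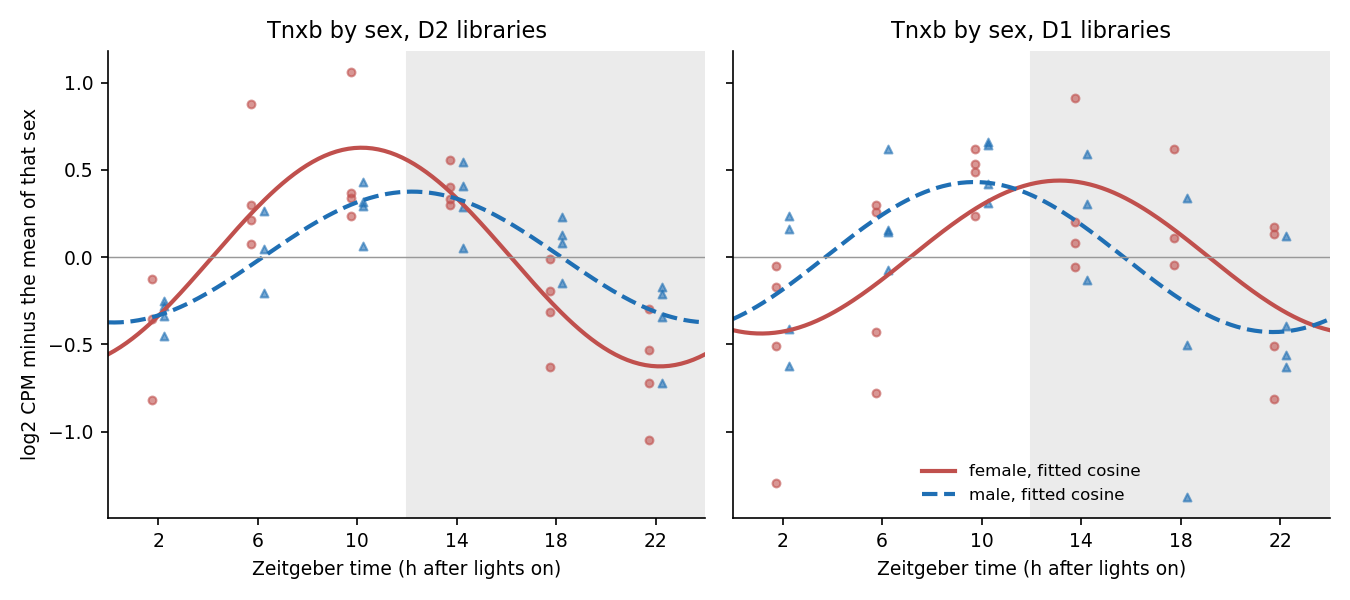
Tnxb as log2 CPM minus the mean of its sex against zeitgeber time in D2 (left) and D1 libraries (right), with libraries as points (circles female, triangles male), the fitted cosine as a solid line for females and a dashed line for males, and grey for the dark phase. The fitted peak is at ZT 10.2 in D2 females and ZT 12.2 in D2 males, and at ZT 13.1 in D1 females and ZT 9.72 in D1 males.

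Genes with the most similar pattern were sought over the 12 means of sex and time in D2 neurons, with letter effects removed, among 14351 genes of at least 1 CPM. The highest correlation with Tnxb was that of ENSMUSG00000021669, with Pearson's r of 0.91, followed by ENSMUSG00000025511 with 0.88. Of all genes, 26 had an r over 0.8, and the median was 0.01. Over the 12 D1 means the same genes had an r of 0.29 and 0.21 with Tnxb. The others of the 5 genes most like Tnxb in D2 had a D1 r of 0.36, 0.34 and 0.55. The points are means of the same libraries for every gene, so r is a description.

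ENSMUSG00000021669 followed the order of Tnxb with a much smaller change. Its D2 level was 145.0 ± 4.42 CPM at ZT10 (SD, 8 libraries) against 136.4 ± 4.39 CPM at ZT22 (SD, 8 libraries), and it did not pass the test of rhythm there (adjusted p = 0.234, edgeR). ENSMUSG00000025511 was at 2.54 ± 0.847 CPM at ZT22 (SD, n = 8) and 4.12 ± 1.01 CPM at ZT10 (SD, n = 8). Its amplitude in D2 neurons was 0.35 with a peak at ZT 10.7. It passed the D2 test (adjusted p = 0.00440, edgeR), but it was singled out by its likeness to a gene chosen for rhythm in these libraries. In D1 neurons its amplitude was 0.08 and it did not pass (adjusted p = 0.853, edgeR). ENSMUSG00000040675, next by r, had amplitudes of 0.25 in D2 and 0.22 in D1 neurons, with peaks at ZT 11.1 and 12.2. It passed in D2 but not in D1 (adjusted p = 8.34e-05 and 0.0752, edgeR). ENSMUSG00000034157 and ENSMUSG00000038252 had amplitudes of 0.12 and 0.11 in D2 and of 0.06 and 0.05 in D1 neurons. Both passed in D2 (adjusted p = 0.000214 and 0.0304, edgeR) but not in D1 (0.448 and 0.701). Their choice by likeness carries the same limit.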

How the data were processed

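The authors deposited raw counts per gene, not normalised, for 91 libraries. Per the submitters' processing notes, the tools were FastQC 0.11.7, HISAT2 and HTSeq 0.10.0. The same notes name GRCm38 and GRCh38 with no role for either. By its name the deposited table had been filtered for low log CPM, with the threshold unstated.

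The test was that of edgeR 4.0.16 under R 4.3.3 (TMM, quasi-likelihood F-test, Benjamini-Hochberg over all 14355 genes, threshold 0.05), with a mean and a 24 h cosine and sine term for each sex. Fits used the D1 libraries, the D2 libraries, or all 91 for D1 minus D2. Alternatives used DESeq2 1.42.0 and limma 3.58.1. The fit was tried on data simulated from the D1 libraries only, without shared effects of the letters, and the outcome is not given here. Tnxb and the gene lists were chosen with earlier results of these data known. The reference table of 49997 entries holds 0 Ensembl identifiers, so the identifier of Tnxb was taken as given with the choice of the gene. The lists were therefore not scored, and of the 5 genes most like Tnxb by r only the first 2 are described by level. Same-letter libraries of different groups deviated together in D2 (100% of 243 pairs with r over 0.1), less so in D1 (66.4% of 223), so letters were taken as pairing D2 libraries only. No library of a group was a copy of another (lowest mean chi-square per gene 4.24 in 129 pairs). Separate origin of the libraries within a group is not stated, so p-values measure the spread between these libraries.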

Additional observations from a re-analysis of the deposited data

Results flagged for a closer look

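In 19 groups of 4 libraries, 1 library lay far from the others of its group: D2 female ZT10 B, with 8.92 CPM of Tnxb, where the other 3 held between 5.04 and 5.51 CPM. Its gap to the nearest library was 0.877 of the range of the group. Chance gives such a library in about 1 of 20 groups, and 5 groups of 3 libraries were not tested. Without it the D2 amplitude was 0.46 with a peak at ZT 11.0, against 0.48 and ZT 10.9 with it.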

How the results depend on the processing

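Leaving out 1 or 2 high D2 libraries, and D1 letter, sex, spread and ratio values without the 3 libraries that stand apart, were chosen after seeing the data. The D2 amplitude of Tnxb stayed between 0.39 and 0.50 and its peak between ZT 10.6 and 11.3 in 14 alternatives; the lowest value came from log2(CPM + 1), which shrinks changes of low genes. The difference D1 minus D2 in mean level was between -0.41 and -0.31 and passed in all 16. The D1 rhythm passed in 11 of 16 alternatives (adjusted p from 0.00187 to 0.476); with time as a factor the value, measured from the middle of the range between times to its top, was 0.39 and did not pass, and without single letters the amplitude was between 0.37 and 0.42. With the letter as a replicate block it was 0.41 (adjusted p = 0.0217), and the block changed no call of Tnxb. The male minus female mean of Tnxb in D1 libraries, which never passed, changed sign: it was -0.057 with limma voom, -0.030 with depth as a covariate and -0.12 without letter B, and without other letters it reached 0.14. No other tested result of Tnxb changed side. DESeq2 gave no adjusted p for the sex differences in mean level. The number of rhythmic genes behind the shares quoted varied widely: 422 in D2 neurons, from 55 without letter C to 3198 with the block, and 71 in D1 neurons, from 13 without letter C to 717 with limma voom. For mean level between cell types 2770 genes differed, from 1767 without letter D to 8248 with limma voom. Depth limits single libraries, which hold as few as 10 counts of Tnxb.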
